A study of Rattus norvegicus with 6 samples.

Results

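The small leucine-rich proteoglycans are secreted matrix proteins whose core is built of leucine-rich repeats, and 9 of their genes were looked up by symbol in the authors' table: Dcn, Bgn, Lum, Fmod, Ogn, Prelp, Aspn, Omd and Kera. Of these 9, 8 were among the 20675 genes of the table. Kera (keratocan) was not found there, so no level is given for it, and only the sequence before its start was searched. Cells grown from the disc of the rat temporomandibular joint, a pad of fibrocartilage in the jaw joint, had been given GSK101, an agonist of the cation channel TRPV4, for 24 h in 3 samples, and the solvent DMSO for the same 24 h in 3 control samples (Ctrl). The cells of all 6 samples were primary cells for which the labels name no genetic change, and the sources used here give neither the strain, sex and age of the rats nor the dose, nor whether replicates came from separate animals. The spread behind every p-value is thus that between samples of a group, and it may be technical.

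The members bind fibrillar collagen and set the width and spacing of its fibrils, and several also hold growth factors or, once released, act on cell surface receptors. Decorin (Dcn) and biglycan (Bgn) carry chondroitin or dermatan sulphate chains, and asporin (Aspn) is their close relative with a stretch of aspartic acid. Lumican (Lum), fibromodulin (Fmod), PRELP and osteomodulin (Omd) form the class that carries keratan sulphate or little sugar, and osteoglycin (Ogn) belongs to a further class. The temporomandibular disc is a fibrocartilage rich in type I collagen, in which decorin and biglycan are known as the main small proteoglycans.

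Biglycan was by far the most abundant member and fell with GSK101, while lumican and decorin rose. Fmod, Ogn, Prelp and Aspn did not pass the test, and Omd was too low to be tested. In RPKM (reads scaled to gene length and to the reads counted in the library), Bgn went from 427 to 324, Lum from 32.0 to 47.2 and Dcn from 17.0 to 23.1 (means, n = 3). Of the 7 members tested, 2 were higher and 1 was lower, where 20.1% of the 12801 tested genes were called higher and 11.9% lower (limma, adjusted p under 0.05). The family's share of called genes, 3 of 7, was thus read against a background of 31.9%. The same 3 members were those whose groups did not overlap, which held for 47.3% of all tested genes. The count moved with the scaling between libraries, to 1 higher and 1 lower with median-ratio scaling and to 1 higher and 2 lower with quantile normalization. It also changed with a library left out: 4 members were higher without GSK101 replicate 3, 1 without control replicate 1 or 2 or GSK101 replicate 1, and 0 without control replicate 3 or GSK101 replicate 2, while 2 were lower without control replicate 1 and 1 without any other library. Such fits have fewer samples and less power. Over all genes they called 1835 to 2295 higher, against 2570 with all libraries. A lost call thus need not mean that the result rested on that library.

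**Figure D1:**
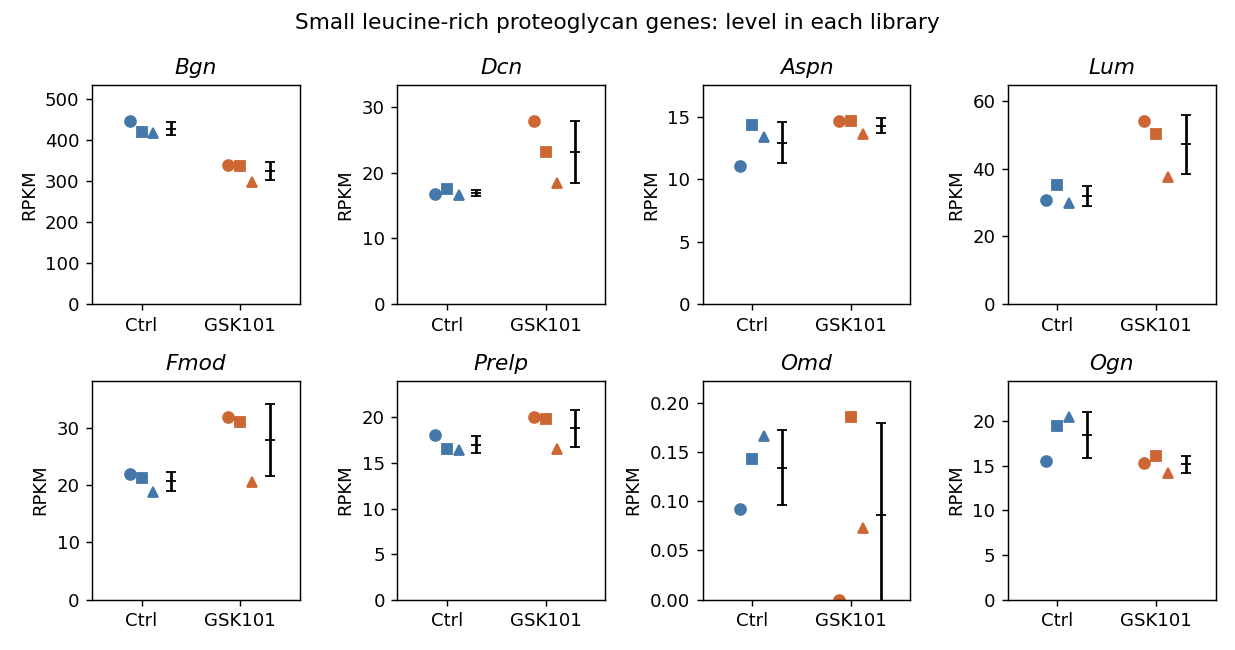
RPKM of each member in each library, with controls in blue, GSK101 in orange, circles, squares and triangles for replicates 1, 2 and 3, and the mean with its SD (n = 3) in black; each panel has its own axis, which starts at 0. The groups are apart for Bgn, Lum and Dcn, and the triangle of GSK101 replicate 3 is the lowest of its group for 7 of the 8 genes, Omd being the exception.

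Libraries held 43061102 to 45705238 counted reads. The smallest read number of a tested member was 773, for Aspn, and the largest 49288, for Bgn. Counts of called genes in the marker lists below stand against 20.1% called higher and 11.9% called lower among all tested genes. The cells had fibroblast markers throughout: the 7 measured genes of that list, among them Col3a1 at 3521 RPKM in the controls, had a summed level of 13726 to 14569 RPKM in control libraries and 12511 to 13572 in GSK101 libraries, with Pdgfra called higher and Pdgfrb and Thy1 lower. Of 8 measured chondrocyte markers, 5 stayed under 0.5 RPKM in every library (Col2a1, Col9a1, Col11a2, Matn3 and Hapln1), while Acan was at 33.6 in the controls. Markers of pericytes and smooth muscle moved with the treatment, 4 of 6 tested genes being lower and none higher, with a summed level of 5305 to 5509 RPKM in control and 2904 to 3170 in GSK101 libraries. In bulk samples fewer cells of a type and less RNA per cell cannot be told apart. Skeletal muscle markers were lower in 3 of 3 tested genes (Acta1, Myh4 and Myh3), with Myod1, Myog, Ckm and Actn3 under 0.5 everywhere. They summed to 14.8 to 16.1 RPKM in control and 8.97 to 9.59 in GSK101 libraries, mostly through Acta1, which fell from 12.4 to 7.69. Osteoblast markers had a summed level of 103 to 126 RPKM in control and 207 to 246 in GSK101 libraries, but most of this sum was Spp1. The 3 tested genes were split. Spp1 rose from 109 to 220 RPKM (limma adjusted p = 0.000272), Alpl fell from 3.50 to 1.95 (limma adjusted p = 0.000733) and Runx2 was not called. Sp7, Bglap and Dmp1 stayed under 0.5 everywhere. Of 5 tested tendon and ligament markers, Scx, a tendon transcription factor, fell from 34.7 to 19.6 RPKM (adjusted p = 0.000232) and Thbs4 rose (adjusted p = 0.0198), with summed levels of 103 to 111 and 94.3 to 122. Of 3 tested synovial lining markers, Prg4 and Cd55 rose and Hbegf fell, with summed levels of 35.5 to 41.1 in control and 42.8 to 63.2 in GSK101 libraries. Leukocyte markers summed to at most 12.3 RPKM in control and 12.5 in GSK101 libraries, with no call. Of 5 measured endothelial markers, Cdh5, Vwf, Tek and Emcn stayed under 0.5 everywhere and Kdr rose from 0.551 to 1.01 RPKM (adjusted p = 0.00875), so that the list summed to 0.667 to 0.854 RPKM in control and 1.10 to 1.32 in GSK101 libraries. Schwann cell markers, with 1 of 3 tested genes higher, summed to 31.4 to 33.7 and 33.5 to 37.1 RPKM, and epithelial markers, with no call, to 2.04 to 2.36 and 1.76 to 2.03. The part of any of these marker lists in the changes of the members was not tested.

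The gene of biglycan, Bgn, is found on chromosome X between 157319046 and 157331204, minus strand (Rnor_6.0, as for all gene positions here), with exons that overlap no other gene of the table. Biglycan is made with a propeptide that BMP1 removes, and its soluble form is known to engage toll-like receptors. Its RPKM was 445, 419 and 417 in control replicates 1 to 3 and 338, 335 and 297 in GSK101 replicates 1 to 3. Every GSK101 library lay below every control library. The log2 fold change was -0.40 (SE 0.06, 95% interval -0.54 to -0.27, adjusted p = 0.00207, limma), a level 1.32-fold lower by the ratio of the means. The call held under all 16 alternatives, with adjusted p from 3.36e-05 to 0.00907. By mean RPKM, Bgn ranked 253 of the 20675 genes.

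Dcn occupies 38742051 to 38782323 of chromosome 7, plus strand. Decorin, named for the way it decorates collagen fibrils, binds TGF-beta and receptor tyrosine kinases. Its RPKM was 16.8, 17.5 and 16.6 in the controls and 27.8, 23.1 and 18.4 with GSK101. The controls lay close together, with a coefficient of variation of 2.73%, and the GSK101 libraries were spread over 20.5%, the lowest of them only just above the controls. Its log2 fold change was 0.41 (SE 0.13, 95% interval 0.12 to 0.71, adjusted p = 0.0417), a 1.36-fold ratio of the means. This call was lost under 9 of the 16 alternatives, among them median-ratio scaling, quantile normalization and 5 of the 6 fits with a library left out. The adjusted p ran from 0.00477 without GSK101 replicate 3 to 0.102 with no filter, and the log2 fold change was 0.27 without GSK101 replicate 1. Without control replicate 1, 2 or 3 the log2 fold change was little changed, at 0.41, 0.44 and 0.40, with a larger SE of 0.15 each.

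Aspn (chromosome 17, 14656009 to 14679409, minus strand) encodes asporin, which binds collagen and TGF-beta. Its RPKM was 11.1, 14.3 and 13.4 in the controls and 14.6, 14.6 and 13.6 with GSK101, so the groups overlapped. The log2 fold change of 0.15 (95% interval -0.06 to 0.35, adjusted p = 0.26) allows anything from a fall to a 1.28-fold rise. It passed under none of the 16 alternatives.

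Lum follows Dcn on the same strand of chromosome 7, from 38819771 to 38826862. Lumican limits the width of collagen fibrils and is known from cornea, skin and tendon. Its RPKM was 30.7, 35.2 and 29.9 in the controls and 54.0, 50.2 and 37.4 with GSK101. The groups did not overlap, although GSK101 replicate 3 was nearer to control replicate 2 than to the other libraries of its own group. Lum had a log2 fold change of 0.54 (SE 0.13, 95% interval 0.24 to 0.85, adjusted p = 0.0161), a 1.48-fold ratio of the means. The call held in 14 of 16 alternatives and was lost without control replicate 3 (adjusted p = 0.0512) or without GSK101 replicate 2 (adjusted p = 0.054).

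Fmod (chromosome 13, 50873605 to 50885563, plus strand) encodes fibromodulin, which shares a binding site on type I collagen with lumican. Its RPKM was 21.9, 21.2 and 18.7 in the controls and 31.8, 31.0 and 20.6 with GSK101. GSK101 replicates 1 and 2 lay above all controls, and replicate 3 lay within them. With a log2 fold change of 0.40 (SE 0.16, 95% interval 0.04 to 0.76), Fmod did not pass (adjusted p = 0.0869). Without GSK101 replicate 3 it was 0.60 (adjusted p = 0.0027), and it also passed with limma-voom (adjusted p = 0.0155).

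Prelp (chromosome 13, 50749514 to 50761355, minus strand) encodes a protein with a proline- and arginine-rich end that links basement membrane to collagen. Its RPKM was 18.1, 16.5 and 16.4 in the controls and 20.0, 19.9 and 16.5 with GSK101. The groups overlapped through GSK101 replicate 3, as for Fmod. The log2 fold change was 0.14 (95% interval -0.05 to 0.33, adjusted p = 0.246), and 0.23 without that replicate (adjusted p = 0.0375).

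Omd, the osteomodulin gene known from mineralizing tissue, had 8, 12 and 14 reads in the controls and 0, 16 and 6 with GSK101. These are RPKM values of at most 0.185, and the 0 in GSK101 replicate 1 allows up to 3 reads, or 0.0353 RPKM, if reads were counted singly (counting error only). All these counts are even, and if both mates of a pair were counted, this limit is higher. No difference was detectable at this depth (exact permutation test, two-sided, p = 0.6; its smallest possible p is 0.1 with 3 samples a group).

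Ogn, which encodes osteoglycin or mimecan, was the other tested member with a lower mean. Its RPKM was 15.5, 19.4 and 20.4 in the controls and 15.3, 16.1 and 14.2 with GSK101, with control replicate 1 inside the GSK101 range. On the log2 scale the change was -0.27 (SE 0.10, 95% interval -0.50 to -0.03, adjusted p = 0.0823). It was -0.38 without control replicate 1 (adjusted p = 0.00768) and also passed with limma-voom (adjusted p = 0.0209) and quantile normalization (adjusted p = 0.0434). The table's gene model joins 2 places of chromosome 17 on the minus strand, 7 exon rows from 14607442 to 14627937 and 6 from 15449301 to 15467279. Of the 6 exons of the second place, 4 have the same lengths as exons of the first (96, 203, 159 and 94 bases). The RPKM of Ogn was scaled to 3547 bases, the exons of both places together (2650 and 897). The same reads over the first place alone would give a higher RPKM. The sources used here do not say how reads that match both places were counted, so the level of Ogn is less certain than that of the other members.

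**Figure D2:**
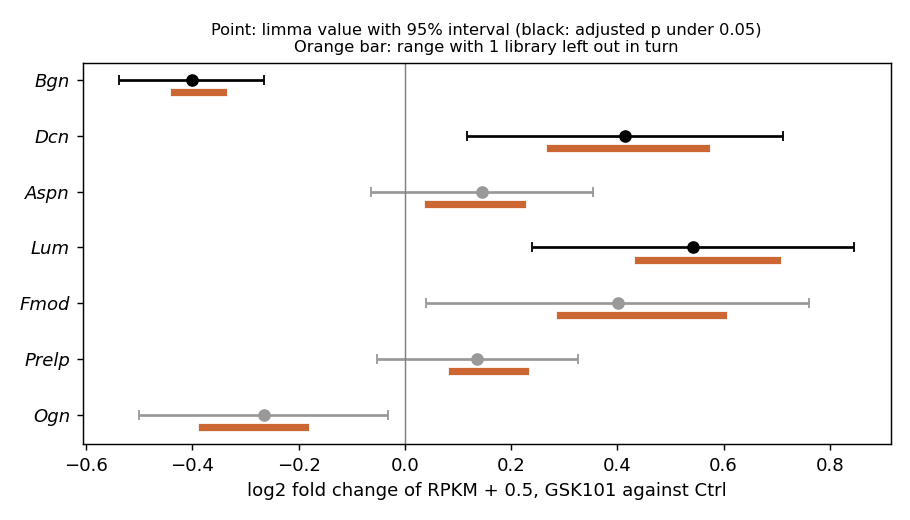
Log2 fold change of RPKM + 0.5 for the 7 tested members, with the limma 95% interval (black where called, grey where not) and, in orange, the range of values when each library was left out in turn. The orange bars of Bgn, -0.43 to -0.34, and of Ogn lie left of 0 and the 5 others right of it, and the bar of Dcn runs from 0.27 to 0.57.

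The members' shares of the family's summed level also differed between the groups. Bgn made up 77.1% to 79.5% of the summed RPKM of the 8 members in control libraries and 67.4% to 71.1% in GSK101 libraries, a description with no test. The summed RPKM was 533 to 559 in control and 418 to 502 in GSK101 libraries. Without Bgn it was 114 to 124 and 121 to 164, and the groups overlapped. In the controls the order of levels was Bgn, Lum, Fmod, Ogn, Prelp, Dcn, Aspn and Omd, where the place of Ogn depends on its gene model. The ranges of Fmod and Ogn, Ogn and Prelp, and Prelp and Dcn overlapped. With GSK101 Dcn stood next after Fmod, ahead of Prelp and Ogn, and the ranges of Fmod and Dcn, Dcn and Prelp, and Ogn and Aspn overlapped.

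The ratio of 2 members within a library does not depend on the scaling between libraries. The ratio of Bgn to Dcn was 26.4, 24.0 and 25.1 in the controls and 12.1, 14.5 and 16.2 with GSK101. It was lower in all 3 GSK101 libraries, by 0.83 on the log2 scale on average, with means of 25.2 ± 1.22 and 14.3 ± 2.03 (SD, n = 3; exact two-sided permutation p = 0.1, the smallest that 3 against 3 allows). The ratio of Ogn to Dcn went from 1.09 ± 0.156 to 0.672 ± 0.112, with no overlap. That of Prelp to Dcn was 1.08, 0.945 and 0.986 in the controls and 0.720, 0.859 and 0.897 with GSK101, again with no overlap. The ratio of Lum to Dcn, in contrast, overlapped between the groups, at 1.88 ± 0.116 and 2.05 ± 0.116 (exact permutation p = 0.2), and so did that of Fmod to Dcn, at 1.21 ± 0.0873 and 1.20 ± 0.122 (exact permutation p = 0.9). Of the 6 ratios to Dcn, 3 had groups that did not overlap, where the same held for 46.9% of all tested genes set against Dcn. Over the 8 ratios computed, the smallest adjusted p was 0.2.

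**Figure D3:**
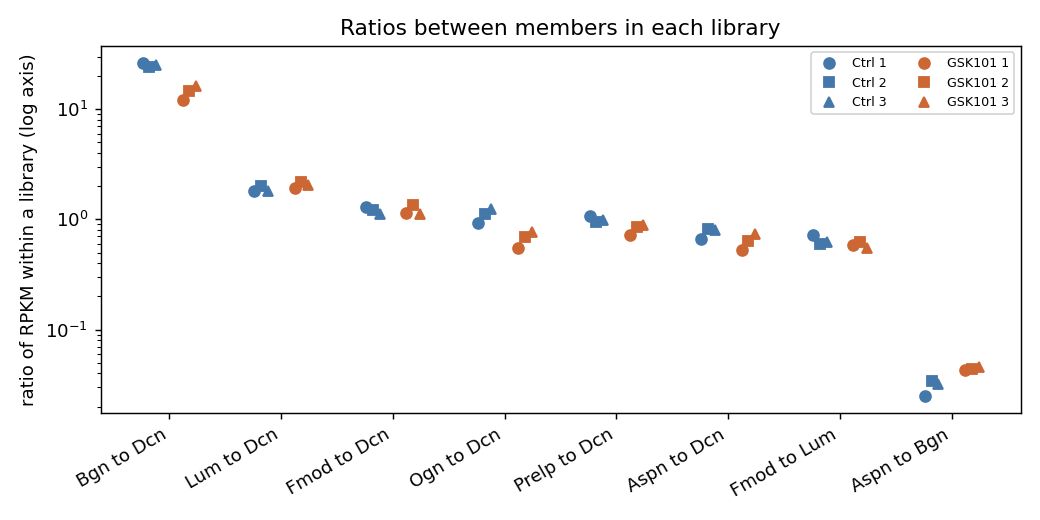
Ratio of the RPKM values of members within each library for the 8 ratios computed, on a log axis, with controls in blue and GSK101 in orange and 1 symbol per replicate. The ratio of Bgn to Dcn is 24.0 to 26.4 in the controls and 12.1 to 16.2 with GSK101, whereas the values of Lum to Dcn and Fmod to Dcn of the groups lie among each other.

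Across the 6 libraries the log2 levels of Dcn and Lum had a Pearson r of 0.97, those of Dcn and Fmod 0.94, those of Fmod and Prelp 0.96, and those of Bgn and Lum -0.67. These are descriptions over 6 libraries that share the group difference. Within the GSK101 group, replicate 3 differed least from the control mean for Dcn (0.11 on the log2 scale, against 0.70 and 0.44), for Lum (0.23 against 0.75 and 0.65) and for Fmod (0.00 against 0.62 and 0.58). For Bgn it differed most, at -0.52 against -0.34 and -0.35. Among all tested genes, the profiles most like that of Bgn over the 6 libraries were those of Ginm1, Hbegf and Sema3f (r of 0.997 each), most like Dcn those of AABR07022168.1 (0.992), Tnfrsf12a (0.984) and Sod2 (0.980), and most like Lum those of Tcf19 (0.994), Mmp10 (0.990) and Sod2 (0.990). A high r does not give the size of a change. AABR07022168.1 and Tnfrsf12a were not called (limma adjusted p = 0.0692 and 0.144), and Tnfrsf12a went only from 78.0 to 82.6 RPKM.

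Several members are neighbours in the genome, and neighbours did not all move together. Dcn and Lum, both called higher, follow each other on chromosome 7, and the next gene, Epyc (epiphycan, of the same family as Ogn), was at 0.135 ± 0.066 RPKM in the controls and 0.044 ± 0.043 with GSK101, too low to test. Prelp and Fmod lie on chromosome 13 with Optc beside Prelp. Optc, which encodes opticin of the same family, rose from 0.895 ± 0.071 to 1.86 ± 0.30 RPKM, which is 0.75 higher on the log2 scale (SE 0.12, adjusted p = 0.00257). Ogn, Omd and Aspn lie in a row on chromosome 17, where Ogn and Aspn were not called and Omd was too low to test. Outside the family, Nol8, next to Ogn, rose by 0.41 on the log2 scale (adjusted p = 0.0101), Btg2, next to Fmod, did not pass (0.07), and the unnamed AABR07042454.1 beside Bgn was called higher by 0.40 (adjusted p = 0.043), a call that 9 of 16 alternatives lost.

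The sequences before the start of Lum, Fmod and Ogn are shown because these genes are a called increase, a member with a like profile, and a member with a lower mean. They are the 250 bases before the start of each gene, 5′ to 3′ on the gene's strand, from RefSeq on the build GRCr8, where 6 of the 9 symbols had an entry (Lum, Kera, Fmod, Ogn, Omd and Aspn). Capitals mark matches, on either strand, to any of 4 motifs. For the factor AP-1 the letters searched were TGANTCA, and for the TEAD factors they were CATTCC. The box that binds SP1 was searched as GGGCGG, and the TATA box, a core promoter element, as TATAAA.
Lum, chr7:34245456-34245705, plus strand: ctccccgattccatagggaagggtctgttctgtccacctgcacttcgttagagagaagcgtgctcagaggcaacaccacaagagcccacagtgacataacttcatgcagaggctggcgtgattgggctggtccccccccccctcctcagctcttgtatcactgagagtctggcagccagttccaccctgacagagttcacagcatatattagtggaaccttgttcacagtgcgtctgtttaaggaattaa
Fmod, chr13:48045317-48045566, plus strand: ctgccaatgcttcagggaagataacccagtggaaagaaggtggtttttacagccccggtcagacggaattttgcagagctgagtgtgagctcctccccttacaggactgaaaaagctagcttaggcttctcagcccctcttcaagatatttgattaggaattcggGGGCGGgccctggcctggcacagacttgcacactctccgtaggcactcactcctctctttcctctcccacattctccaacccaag
Ogn, chr17:15258996-15259245, minus strand: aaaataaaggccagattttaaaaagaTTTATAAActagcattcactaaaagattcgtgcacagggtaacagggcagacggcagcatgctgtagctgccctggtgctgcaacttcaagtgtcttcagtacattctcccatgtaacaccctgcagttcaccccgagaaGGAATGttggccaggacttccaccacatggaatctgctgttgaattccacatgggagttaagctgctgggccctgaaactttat
The Lum window held none of the 4 motifs. The Fmod window held 1 SP1 motif, 85 to 80 bases before the start, and such a motif was found in 30.5% of 33469 rat promoter windows of this length. The Ogn window held 1 TEAD motif, 84 to 79 bases before the start, and a pair of overlapping TATA motifs, 224 to 217 bases before it. The TEAD motif was found in 12.1%, the TATA motif in 12.9% and the AP-1 motif, present in none of the 6 members' windows, in 6.34% of all windows. A match is a description of letters and not a binding site.

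Other genes of the leucine-rich proteoglycan family were scarce. Of 9 measured, 5 were tested, 1 rose (Optc) and none fell, where 20.1% of all tested genes were called higher and 11.9% lower. Quantile normalization and leaving out control replicate 2 gave 1 higher and 1 lower, and no filter gave 2 and 0. Tsku (tsukushi), the most abundant of them, was at 6.27 ± 0.68 and 7.08 ± 0.52 RPKM (adjusted p = 0.198), and Podnl1 at 1.66 ± 0.24 and 1.27 ± 0.09 (adjusted p = 0.0804).

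Enzymes that build the linker and the chondroitin or dermatan sulphate chains of these proteins changed in both directions. Counts of the following lists stand against 20.1% higher and 11.9% lower among all tested genes, whose median log2 fold change was 0.03. Of 7 tested genes for the chain linker 2 rose and 2 fell, with a median of 0.07 (2 and 1 when scaled as TPM, 1 and 2 under quantile normalization or with no filter, 1 and 1 without control replicate 2 or GSK101 replicate 1, 2 and 0 without control replicate 3, 1 and 0 without GSK101 replicate 2, 2 and 1 without GSK101 replicate 3). Xylt1, the enzyme that puts the first sugar on the core protein, rose from 0.958 to 1.59 RPKM (log2 fold change 0.54, adjusted p = 0.0383), a call lost under 6 of 16 alternatives, and the xylose phosphatase gene Pxylp1 rose by 0.35. The next linker enzymes B4galt7 and B3gat3 fell by 0.23 and 0.16 on the log2 scale. Of 13 tested genes for chondroitin and dermatan sulphate 3 rose and 3 fell, with a median of -0.08, and 2 rose and 1 fell without GSK101 replicate 2. Chst11, a chondroitin 4-sulphotransferase, went from 10.5 to 16.1 RPKM, a rise of 0.60 on the log2 scale (adjusted p = 0.000458). Of the pair of enzymes that start the chain, Csgalnact2 rose by 0.33 (adjusted p = 0.00202) and Csgalnact1 fell by 0.29 (adjusted p = 0.0181), and the chain polymerase gene Chsy3 fell by 0.44.

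Of 6 tested genes for keratan sulphate, the chain of lumican and fibromodulin, 3 rose and none fell (median 0.19), but 1 rose and 1 fell with median-ratio scaling or quantile normalization. B4galt4 was just short of a call, at -0.30 on the log2 scale (limma adjusted p = 0.0505). With the pseudocount of 0.1, the filter at 1 RPKM, the replicate block or limma-voom, 3 rose and 1 fell. Without control replicate 2 or 3 or GSK101 replicate 1 or 2, and with no filter, 1 rose and none fell, and 2 rose and 1 fell without control replicate 1. B3gnt2, which extends the chain, rose by 0.37 (adjusted p = 0.00168). The sulphotransferase gene Chst2 and the sialyltransferase gene St3gal1 were called higher by 0.32 and 0.27, calls lost under 9 and 8 of 16 alternatives. Of 9 genes that supply sulphate and sugar nucleotides 1 rose and 1 fell (median 0.08; 1 and 0 when scaled as TPM and without control replicate 1 or GSK101 replicate 1 or 2, 2 and 1 without control replicate 2, 2 and 0 without GSK101 replicate 3). Ugdh, the source of UDP-glucuronate, rose by 0.37 (adjusted p = 0.00135) and Papss1, which makes the sulphate donor, fell by 0.18 (adjusted p = 0.0279).

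Among the collagens these proteins bind, 2 of 11 tested rose and 1 fell (median 0.13; 2 and 2 with median-ratio scaling, 2 and 0 when scaled as TPM, 1 and 1 with no filter). With a library left out, from 1 (without control replicate 2 or 3 or GSK101 replicate 1 or 2) to 4 (without GSK101 replicate 3) were higher, and from 0 (without GSK101 replicate 1 or 3) to 2 (without control replicate 3 or GSK101 replicate 2) lower. Col6a3 and Col6a1, chains of the beaded collagen VI to which biglycan binds, rose by 0.88 and 0.25 on the log2 scale, and Col11a1 fell by 0.25. Of 17 tested genes for assembly and processing of fibrils 9 fell and 4 rose, with a median of -0.18, where 11.9% of all tested genes were called lower and 20.1% higher. The counts lower and higher were 10 and 2 with median-ratio scaling, 5 and 4 when scaled as TPM and 5 and 1 with no filter. The number lower was 5 without control replicate 1 or 2 or GSK101 replicate 1 or 3, and the number higher was 1 without control replicate 2 or 3 or GSK101 replicate 1 or 2. Loxl1, a crosslinking oxidase, fell by 0.47 (adjusted p = 0.000659), the collagen chaperone gene Serpinh1 by 0.34 (adjusted p = 0.000933) and Tll1, a relative of the BMP1 protease, by 0.41 (adjusted p = 0.00172), while Lox, another crosslinking oxidase, rose by 0.47 (adjusted p = 0.00107).

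Of 9 tested proteases known to cut these proteins 2 rose and 1 fell (median 0.03): Adamts5 and Mmp3 were higher by 0.79 and 0.89, and Ctsk, cathepsin K, was lower by 0.26 on the log2 scale. Of 17 tested receptors and growth factors bound by the family 8 rose and 4 fell (median 0.15), where 20.1% of all tested genes were called higher and 11.9% lower. The number higher was 4 without GSK101 replicate 1 or 2, and 5 without control replicate 2 or 3 or with no filter. Cd44 rose by 0.38 (adjusted p = 0.000647), and Tgfb3, the integrin gene Itgb1 and Wisp1 fell by 0.60, 0.31 and 0.28. Of 15 tested large and cell surface proteoglycans 3 rose and 4 fell (median -0.07). Sdc4 (syndecan 4) rose from 41.9 to 82.4 RPKM, by 0.97 on the log2 scale (adjusted p = 0.00011), while Sdc2 and Sdc3 of the same family fell by 0.44 and 0.34 and Gpc4 (glypican 4) by 0.77 (adjusted p = 0.000101). Among the genes named from these lists, B4galt7, B3gat3, Csgalnact1, Papss1, Col6a1 and Col11a1 lost their calls under 2 to 5 of the 16 alternatives.

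**Figure D4:**
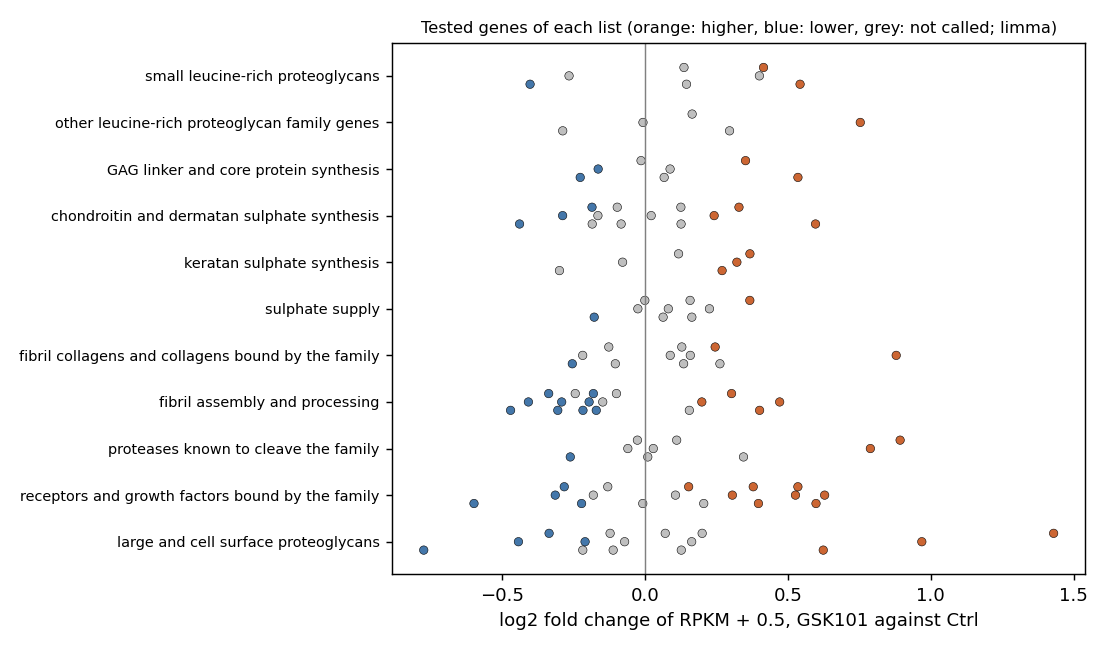
Log2 fold change of RPKM + 0.5 of each tested gene in the 11 lists, where orange marks genes called higher, blue genes called lower and grey genes not called; vertical offsets within a list only separate the points. Each of the lists but keratan sulphate synthesis and the other leucine-rich family genes has calls on both sides of 0.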

How the data were processed

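RNA of 3 GSK101 and 3 DMSO samples was extracted with TRIzol and sequenced from stranded, molecularly barcoded polyA libraries, per the labels' protocols. The authors deposited RPKM values for 20675 genes, with exon positions and gene length. The submitters' processing notes name STAR 2.5.3a, Trimmomatic 0.36, edgeR 3.12.1, Subread 1.5.1, featureCounts and Rnor_6.0, without their roles. How strand, barcodes and multiply mapped reads were treated was not given there. RPKM times length gave whole multiples of 1 read for 100% of values (within 0.01 of a read), which restored read numbers. Of genes with 1 to 10 reads, 71.3% to 74.7% had even numbers, so both mates may have been counted.

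Genes with at least 0.5 RPKM in 3 libraries (12801) were tested with limma 3.58.1 (R 4.3.3) on values of log2(RPKM + 0.5), a mean-variance trend and group as the only term. This scale understates changes of low genes. P-values were adjusted by Benjamini-Hochberg over all tested genes. Ratios and Omd had exact two-sided permutation tests. Members and lists were chosen with earlier results of these data known. Of each list, up to 4 called genes with the smallest adjusted p are named, or the 2 most abundant where fewer than 2 were called; neighbours and the 3 most alike genes (Pearson r over 6 libraries) follow the same rule. The 16 alternatives were other pseudocounts (0.1, 1), filters (none, 1 RPKM), scalings, no trend, a replicate block, limma-voom on restored reads and each library left out.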

Additional observations from a re-analysis of the deposited data

How the results depend on the processing

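No member changed direction under any of the 16 alternatives, and of 112 values for the 7 tested members 94 stayed on the same side of the threshold, 11 lost a call and 7 gained one. For 38 other named genes 551 of 608 values did so, with 55 calls lost, 2 gained and none reversed, and 248 of 320 list counts stayed within 1.5 times. The number of members called higher went from 2 to 1 with no filter, with median-ratio scaling, with quantile normalization and with no mean-variance trend. It went to 3 with the replicate block and with limma-voom, and ranged from 0 to 4 when a library was left out. The number called lower went from 1 to 2 with quantile normalization and limma-voom, and ranged from 1 to 2 with a library left out. Over all genes, 62.9% of calls were higher, against 52.7% (2165 of them, with 1947 lower) under median-ratio scaling and 48.1% (1982, with 2141 lower) under quantile normalization. Scaling as TPM moved this share the other way, to 72.5% (2944 higher, with 1117 lower). Leaving out a library gave 1835 to 2295 higher and 1055 to 1294 lower. The cause of these differences was not tested.

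The labels do not say what libraries with the same replicate number share. Deviations of same-numbered libraries correlated at 0.054, -0.063 and 0.052, and not every library was most like its own number. With 3 libraries a group, these values cannot show whether the numbers mark a pairing. With the replicate block 2508 genes were higher and 1437 lower, 3 members were higher and 1 was lower, and Fmod passed (adjusted p = 0.0171). The tested members had at least 773 reads, while Omd had at most 16, Epyc at most 20 and Optc 55 to 137.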
